A study of Homo sapiens with 2 samples.

Results

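Genes of the cell division cycle were followed in MDA-MB-231 cells, a human triple-negative breast cancer line, with and without knockdown of RBMS1, an RNA-binding protein. The 45 genes were given as a list of symbols and were found by their GENCODE 29 symbol among 49621 genes listed in the libraries. They comprise 19 genes of DNA replication and the G1/S transition (the S phase set), 22 genes of mitosis (the G2/M set) and 4 G1 regulators. The rule that picks them uses symbols alone and no measured value, although the list was drawn up with earlier results of these data known. RNA-seq gave 1 library of cells with RBMS1 knocked down and 1 control library. Both came from stable lines made with the lentiviral plasmid pLKO.1, carrying an shRNA against RBMS1 in the knockdown line and no shRNA insert in the control line, under puromycin selection in the study's methods. Neither the shRNA nor the number of cultures behind a library is given in the labels. A single library stands for each group, so the values have no replicate check and no test and describe these libraries alone.

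Dividing cells copy their DNA in S phase and separate the copies in mitosis, and the genes for each task are transcribed in waves. Genes of DNA replication are switched on at the G1/S transition by E2F transcription factors once cyclin-dependent kinases have inactivated the retinoblastoma protein. Genes of mitosis peak in G2 and M phase under the MuvB, B-MYB and FOXM1 complexes, which act through a promoter element called the CHR, often beside CCAAT boxes bound by NF-Y. In RNA from a whole culture, fewer cells in a phase and less RNA per cell cannot be told apart.

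The promoters of both sets carry these elements, and 6 are shown, 3 for each set, to let a reader see the elements in genes described below. They were chosen after their values were seen, as the largest differences in the direction of the set's median among genes whose intervals lay apart under both sums of transcripts described below and whose printed stretch holds the element of the set. Genes that went the other way, such as TYMS and KIF23, and genes whose call was lost or turned by length weighting, such as GINS2 and CDC6, are therefore not among them. Each stretch runs 5′ to 3′ on the strand of the gene, from 250 bases before the RefSeq start to 30 bases after it (GRCh38.p14). Capitals mark E2F letters (TTTCCCGC, TTTCGCGC, TTTGCCGC or TTTGGCGC), CHR letters (TTTGAA or TTCGAA) and CCAAT, each on either strand. The S phase genes are UHRF1 (chr19:4909251-4909530, plus strand), MCM7 (chr7:100101368-100101647, minus strand) and PCNA (chr20:5126593-5126872, minus strand). The G2/M genes are BUB1 (chr2:110678034-110678313, minus strand), PLK1 (chr16:23678639-23678918, plus strand) and TOP2A (chr17:40417867-40418146, minus strand).
UHRF1: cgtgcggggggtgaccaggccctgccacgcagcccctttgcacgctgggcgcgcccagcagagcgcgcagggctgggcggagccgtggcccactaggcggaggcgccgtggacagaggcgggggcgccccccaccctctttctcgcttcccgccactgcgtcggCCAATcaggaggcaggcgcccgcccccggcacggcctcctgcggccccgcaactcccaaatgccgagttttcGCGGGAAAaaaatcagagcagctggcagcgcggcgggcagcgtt
MCM7: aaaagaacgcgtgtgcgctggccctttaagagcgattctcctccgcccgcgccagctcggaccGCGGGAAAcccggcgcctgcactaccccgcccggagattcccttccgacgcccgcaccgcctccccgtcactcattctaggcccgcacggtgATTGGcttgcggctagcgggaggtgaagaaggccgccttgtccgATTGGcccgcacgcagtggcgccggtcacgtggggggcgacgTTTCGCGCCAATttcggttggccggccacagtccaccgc
PCNA: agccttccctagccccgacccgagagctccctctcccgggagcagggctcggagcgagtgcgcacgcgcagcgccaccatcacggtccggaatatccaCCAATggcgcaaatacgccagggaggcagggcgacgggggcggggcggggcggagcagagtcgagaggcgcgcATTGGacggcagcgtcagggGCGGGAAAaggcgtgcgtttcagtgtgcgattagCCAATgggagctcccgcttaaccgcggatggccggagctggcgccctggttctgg
BUB1: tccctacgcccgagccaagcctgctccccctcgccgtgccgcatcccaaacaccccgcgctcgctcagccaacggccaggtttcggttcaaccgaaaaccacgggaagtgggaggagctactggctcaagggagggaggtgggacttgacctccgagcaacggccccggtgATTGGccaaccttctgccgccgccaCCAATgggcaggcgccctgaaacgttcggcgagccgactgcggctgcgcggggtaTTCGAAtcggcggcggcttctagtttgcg
PLK1: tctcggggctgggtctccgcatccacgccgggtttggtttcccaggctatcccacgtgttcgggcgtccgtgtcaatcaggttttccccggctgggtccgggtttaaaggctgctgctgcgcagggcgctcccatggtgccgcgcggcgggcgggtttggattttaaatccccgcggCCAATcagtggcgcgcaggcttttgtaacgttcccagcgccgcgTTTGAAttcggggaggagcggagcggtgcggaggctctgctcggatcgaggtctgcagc
TOP2A: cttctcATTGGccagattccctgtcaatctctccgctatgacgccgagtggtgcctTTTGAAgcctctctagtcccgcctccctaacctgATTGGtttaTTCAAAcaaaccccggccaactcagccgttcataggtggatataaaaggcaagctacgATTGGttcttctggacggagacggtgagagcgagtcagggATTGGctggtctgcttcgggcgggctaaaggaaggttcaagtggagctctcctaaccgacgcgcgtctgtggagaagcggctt
The E2F letters of UHRF1 began at position −14 from the start and those of PCNA at −59. MCM7 held them in 2 places, and in the one next to the start they overlapped a CCAAT box. The CHR letters of PLK1 began at −29, with its CCAAT box at −73. TOP2A held 2 copies of the CHR letters among 4 CCAAT boxes. The RefSeq starts were not in each case those of the transcripts behind the levels. The only PCNA transcript above 0 began at position 5120026 of chromosome 20, downstream of the printed stretch. The protein-coding MCM7 transcript began at position 100101940 of chromosome 7, upstream of the printed stretch.

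The same letters were counted in all 27305 promoters of the RefSeq table, in 300-base windows (250 before and 50 after the start). E2F letters stood in 11 of the 16 S phase promoters found there (68.8%), in 2 of 18 G2/M promoters (11.1%) and in 3.33% of all promoters. CHR letters stood in 2 of 16 S phase promoters (12.5%), in 12 of 18 G2/M promoters (66.7%) and in 16.6% of all promoters. CCAAT was common to both, in 11 of 16 S phase promoters (68.8%) and in 15 of 18 G2/M promoters (83.3%), against 35.7% of all promoters. CHR and CCAAT stood together in 11 G2/M promoters (61.1%) and in 6.58% of all promoters. A match of letters is a description of the sequence and shows no binding.

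RBMS1 itself was at 3.76 FPKM after knockdown and 24.1 FPKM in control cells, 15.6% of control. FPKM counts the fragments of a transcript relative to its length in kilobases and to the size of the library. Levels of a gene were summed over its transcripts, and differences are log2 ratios of knockdown over control with 1 FPKM added to both. Where a pair of levels is given the knockdown library comes first, ranges in parentheses after a level are its within-library interval, and a single value in parentheses is the log2 ratio. Over 11186 genes with a mean of at least 1 FPKM the median log2 ratio was 0.02, with quartiles of −0.17 and 0.21. The coverage per FPKM, a measure of relative depth, was 12.3 after knockdown and 11.3 in control cells, which gives similar precision, while the depth in reads is unknown. Of 12 genes that mark breast carcinoma lines 9 had a mean of at least 1 FPKM, 5 lower and 4 higher. VIM, CD44 and AXL, typical of mesenchymal lines, were at 496 and 563, 154 and 204, and 251 and 229 FPKM. The epithelial keratins went both ways, with KRT7 at −0.52 and KRT18 at −0.22 but KRT19 at 0.27 and KRT8, the highest of the list, at 0.38. KRT8 was at 159.9 and 122.2 FPKM, with 87.3 FPKM of the first level and none of the second from assembled transcripts. Without assembled transcripts KRT8 would be lower after knockdown. Intervals lay apart for 5 lower and 3 higher markers, against 11.5% and 13.3% of all genes. EPCAM, the lowest, was at 1.93 and 3.66 FPKM (−0.67), and ERBB2, the receptor HER2, at 7.50 and 7.005 FPKM. The hormone receptor genes ESR1 and PGR were at no more than 0.10 FPKM in either library, and none of 9 marker genes of blood, vessel and liver cells reached a mean of 1 FPKM.

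All 45 genes passed the filter on low values, with means between 5.52 and 140.1 FPKM, so the cells of both libraries expressed replication and mitosis genes at clear levels. The S phase set was lower and the G2/M set higher after knockdown, and both differences were small. The median log2 ratio of the S phase set was −0.20 (quartiles −0.37 and −0.10), which is 86.8% of the control level. The median of the G2/M set was 0.15 (quartiles 0.01 and 0.22), or 111% of the control level. Of the S phase genes 15 of 19 were lower in the knockdown library and 4 higher, whereas 5 of 22 G2/M genes were lower and 17 higher. Among all genes tested 47.2% were lower. The medians of the sets were 0.35 apart on the log2 scale, and of 418 pairs of an S phase and a G2/M gene the S phase gene had the lower ratio in 358 (85.6%). With reference transcripts only 11 S phase genes were lower and 8 higher, and with length weighting 13 and 6. The S phase median was −0.13 with reference transcripts only, and in genes without assembled transcripts the medians of the sets were −0.13 and 0.08, a difference of −0.21. The sets overlapped, with 17 of 19 S phase genes below the G2/M median and 21 of 22 G2/M genes above the S phase median. Over the 45 genes together the directions cancelled, with 22 lower, 23 higher and a median of 0.01.

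Few single genes differed by much. Only GINS2 was past 2-fold, on the lower side, against 2.8% of all genes on that side, and no member was past 2-fold on the higher side, against 2.96% of all genes. Cufflinks gives each transcript an interval for the uncertainty of its estimate within a library, and the bounds were summed per gene. The intervals of the libraries lay apart for 8 lower and 1 higher S phase genes and for 1 lower and 8 higher G2/M genes. Among all genes 11.5% lay apart on the lower side and 13.3% on the higher side. These counts depended on the processing. Scaling to the median gene gave 11 lower and 1 higher S phase genes and 1 lower and 5 higher G2/M genes, where 13.1% of all genes lay apart lower and 11.8% higher. Length weighting gave 8 and 3 S phase genes and 1 and 10 G2/M genes, against 14.7% and 16.2% of all genes. The dominant reference transcript only gave 8 and 6 S phase genes and 2 and 10 G2/M genes, against 22.7% and 26.9% of all genes. All reference transcripts gave 7 and 4 S phase genes and 2 and 9 G2/M genes, against 15.5% and 18.1% of all genes. Such intervals do not cover the spread between cultures, which was not measured. The median half-width of the log2 ratio's interval was 0.22 in the S phase set and 0.19 in the G2/M set, so a single gene at the median of its set was at the limit of what the estimates resolve. The sum of FPKM over the S phase set was 674 after knockdown and 740.0 in control cells, and over the G2/M set 1251 and 1161.

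**Figure D1:**
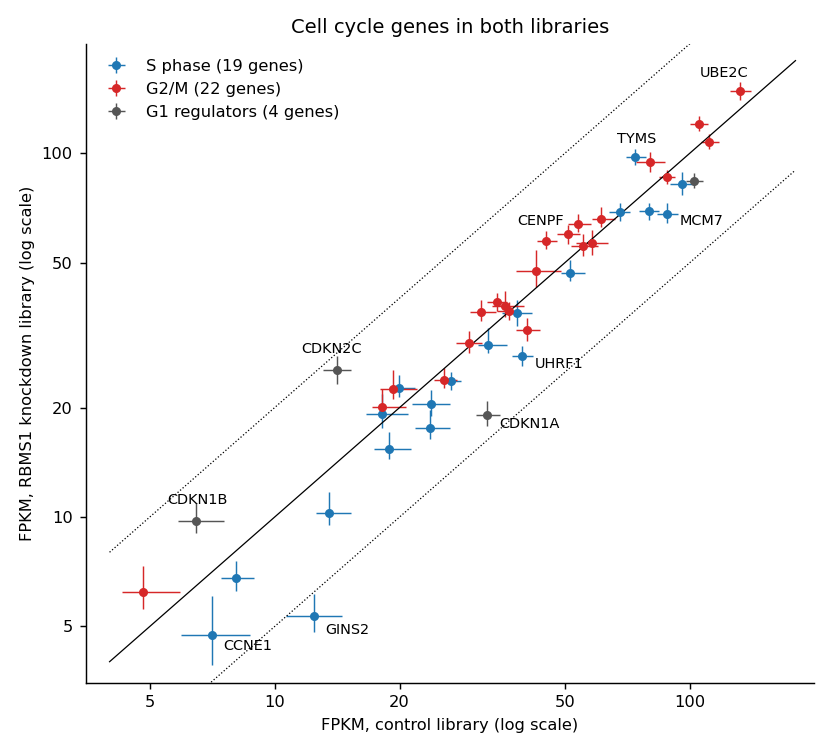
FPKM of the 45 cell cycle genes in the control library (x axis) and in the RBMS1 knockdown library (y axis), both on log scales, 1 point per gene with the within-library intervals as bars. The solid line marks equal levels and the dotted lines 2-fold differences; GINS2 (5.34 against 12.5 FPKM) is the only point past 2-fold, and UBE2C (148 against 132 FPKM) is the most abundant.

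CDC6 and CDT1, which load the MCM helicase at origins, and GINS2, a subunit of the active helicase, were all lower, with a median of −0.41 that was −0.22 with transcripts weighted by length and 0.29 with reference transcripts only. GINS2 (chr16:85676198-85690073) was at 5.34 FPKM (interval 4.84 to 6.13) after knockdown and at 12.5 FPKM (10.7 to 14.5) in control cells, a log2 ratio of −1.08. CDC6 was at 17.6 FPKM (16.4 to 19.6) against 23.7 FPKM (21.8 to 26.5), a log2 ratio of −0.41. The values of both genes rest in part on transcripts that Cufflinks assembled from the reads, and their direction turned with reference transcripts only, to 0.44 for GINS2 and 0.29 for CDC6. CDT1 had 6.80 and 8.06 FPKM, with intervals that overlapped in the plain sum and lay apart with length weighting.

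The 6 subunits of the MCM2 to MCM7 helicase, which unwinds DNA ahead of the polymerases, did not share a direction. MCM7 (chr7:100092728-100101940) was at 68.3 FPKM (64.4 to 73.1) after knockdown and 88.1 FPKM (83.3 to 93.9) in control cells, a log2 ratio of −0.36. A transcript of MCM7 annotated as a retained intron made up 34.6% of the first level and 40.8% of the second, and the protein-coding transcript alone, at 44.6 and 52.1 FPKM, gave −0.22. MCM4 and MCM6 were also lower, at −0.13 and −0.20, while MCM2, MCM3 and MCM5 were higher, at 0.17, 0.02 and 0.07. The intervals of these 5 overlapped between the libraries, and the ratio of MCM6 was above 0 with transcripts weighted by length (0.06) or with reference transcripts only (0.70). Length weighting left MCM2 at 0.17 but with intervals apart. MCM3 was below 0 under other scalings, down to −0.01. MCM proteins form a ring of equal parts, yet their RNA levels after knockdown ran from 19.2 FPKM for MCM5 over 20.5 for MCM6, 22.7 for MCM2 and 29.7 for MCM4 to 68.3 for MCM7 and 69.0 for MCM3.

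The replication clamp and the factors that rebuild chromatin behind the fork were lower in 4 of 4 cases, with a median of −0.24 that was −0.14 with reference transcripts only. UHRF1 (chr19:4903080-4962154), which directs maintenance DNA methylation to newly copied DNA, was at 27.8 FPKM (26.0 to 29.6) after knockdown and 39.5 FPKM (37.2 to 41.9) in control cells. Its log2 ratio of −0.49 was the lowest of the S phase genes whose levels rest on reference transcripts alone. PCNA, the sliding clamp that holds the polymerases on DNA, was at 69.4 FPKM (65.7 to 73.2) against 79.9 FPKM (75.6 to 84.2), a log2 ratio of −0.20. CHAF1A, the large subunit of the histone chaperone CAF-1, was at 15.4 FPKM (14.5 to 17.1) against 18.9 FPKM (17.4 to 21.3), a log2 ratio of −0.28. CHAF1A was higher, at 0.38, with reference transcripts only. SLBP, which binds the stem-loop of histone mRNAs, was at 36.4 and 38.4 FPKM, inside overlapping intervals.

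The genes of deoxynucleotide synthesis went both ways. TYMS (chr18:657604-673578), the thymidylate synthase that makes the DNA-specific nucleotide, was the only S phase gene higher with intervals apart in the plain sum, which length weighting extends to MCM2 and CDC6. It was at 97.7 FPKM (92.9 to 103) after knockdown and 74.1 FPKM (70.2 to 78.4) in control cells, a log2 ratio of 0.39. Both libraries held a single TYMS transcript above 0. The gene ENOSF1, whose exons overlap TYMS on the opposite strand, was listed at 0 after knockdown and at 3.56 FPKM in control cells, and its part in the TYMS value was not tested. RRM2, the regulated subunit of ribonucleotide reductase, was at 82.3 FPKM (76.7 to 89.0) against 95.8 FPKM (89.7 to 103), a log2 ratio of −0.22 with intervals that barely separate. RRM1, the large subunit, was at 46.9 and 51.6 FPKM (−0.13).

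The drivers of S phase entry were lower in 3 of 3 cases, with a median of −0.37. With reference transcripts only the median was −1.47. That setting put E2F1 at −4.78, since its knockdown level came wholly from an assembled transcript, so this median is no measure of a larger difference. CCNE2, a cyclin that activates CDK2 at the G1/S transition, was at 10.2 FPKM (9.48 to 11.7) after knockdown and 13.5 FPKM (12.6 to 15.2) in control cells, a log2 ratio of −0.37. CCNE1, the other E-type cyclin, was at 4.73 and 7.08 FPKM (−0.49), the lowest mean of the S phase set and with overlapping intervals. Length weighting left CCNE1 at −0.45 but with intervals apart. An assembled transcript made up 59.8% of its level after knockdown, and leaving assembled transcripts out gave −1.47, or −1.07 for the dominant reference transcript by itself. E2F1, the transcription factor itself, was at 23.7 and 26.5 FPKM (−0.16), also with overlapping intervals, and its reference transcript was listed at 0 after knockdown.

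In the G2/M set, the medians of the cyclins, the kinases and the kinetochore genes were above 0, while that of the spindle motors was close to 0. The 5 genes of the mitotic cyclins, CDK1 and its phosphatase CDC25C were all higher, with a median of 0.23. CCNA2, cyclin A2 of S and G2 phase, was at 60.0 FPKM (56.4 to 63.6) after knockdown and 51.1 FPKM (47.8 to 54.3) in control cells, a log2 ratio of 0.23. Its dominant reference transcript taken alone gave −0.088. CCNB1, the cyclin that drives entry into mitosis, was at 94.7 FPKM (89.0 to 101) against 80.3 FPKM (74.1 to 87.1), a log2 ratio of 0.24. Of its control level 23.7% was assembled, and leaving that out gave 0.62, or 0.74 for the dominant reference transcript. CDK1, their catalytic partner, was at 66.0 and 61.2 FPKM (0.11), CCNB2 at 30.2 and 29.3 FPKM (0.04) and CDC25C at 6.21 and 4.83 FPKM (0.31), each with overlapping intervals.

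Of the mitotic kinases and checkpoint genes 5 of 6 were higher, with a median of 0.15. BUB1, a kinase of the spindle checkpoint whose promoter is printed above, was at 64.1 FPKM (60.7 to 68.3) after knockdown and 53.9 FPKM (51.0 to 57.9) in control cells, a log2 ratio of 0.24. PLK1, a kinase of mitotic entry and centrosome maturation, was at 36.7 FPKM (34.7 to 39.6) against 31.4 FPKM (29.6 to 34.1), a log2 ratio of 0.22. The other members of this group had overlapping intervals: BUB1B at 20.03 and 18.2 FPKM (0.13), AURKB at 47.6 and 42.6 FPKM (0.16), BIRC5, the survivin subunit of the AURKB complex, at 37.95 and 35.955 FPKM (0.08) and AURKA at 56.8 and 58.2 FPKM (−0.03). With the dominant reference transcript only the Aurora kinases changed sides, AURKA to 0.23 and AURKB to −0.046.

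The kinetochore proteins CENPE and CENPF had the highest median of the G2/M roles in the plain sum, 0.28. CENPF (chr1:214603195-214664588) was at 57.4 FPKM (54.7 to 61.0) after knockdown and 45.1 FPKM (42.9 to 47.9) in control cells, a log2 ratio of 0.34 and the highest of the G2/M set. CENPE, a kinesin that carries chromosomes to the spindle equator, was at 22.5 and 19.2 FPKM (0.22) with overlapping intervals. Length weighting left CENPE at 0.22 but with intervals apart. TOP2A, the topoisomerase that untangles sister chromatids, was at 121 FPKM (115 to 127) against 105 FPKM (100.4 to 111), a log2 ratio of 0.19. Assembled transcripts made up 57.3% and 69.6% of these levels, and reference transcripts only gave 0.67. MKI67, which encodes the proliferation antigen Ki-67 at the surface of mitotic chromosomes, was at 38.9 FPKM (36.9 to 41.3) against 34.3 FPKM (32.6 to 36.4), a log2 ratio of 0.18.

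The motors and assembly factors of the spindle had a median of −0.03, and 3 of 5 were lower. KIF23, a kinesin of the central spindle needed for cytokinesis, was the only G2/M gene lower with intervals apart in the plain sum. It was at 32.6 FPKM (30.6 to 35.3) after knockdown and 40.5 FPKM (38.1 to 43.7) in control cells, a log2 ratio of −0.30. KIF20A, another kinesin of the central spindle, was at −0.09, the spindle assembly factor TPX2 at −0.03, the microtubule-binding protein NUSAP1 at 0.01 and the bipolar spindle motor KIF11 at 0.01, all with overlapping intervals. The direction of NUSAP1 and KIF11 turned under other scalings. KIF11 was at −0.32 with reference transcripts only and at 0.23, with intervals apart, with length weighting. The anaphase-promoting complex was represented by its activator CDC20, at 108 and 112 FPKM (−0.05), and by the ubiquitin-conjugating enzyme UBE2C. UBE2C, the most abundant of the 45 genes, was at 148 FPKM (140.347 to 157) after knockdown and 132 FPKM (125 to 140.321) in control cells, a log2 ratio of 0.16. Its intervals only just separated, with a lower bound of 140.347 FPKM against an upper bound of 140.321 FPKM.

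The 4 G1 regulators had intervals apart in each case, 2 lower and 2 higher, against 11.5% and 13.3% of all genes. Of these 4 genes 3 differed by more than any gene of the other sets but GINS2. CDKN1A (chr6:36676460-36687339), the p53-induced inhibitor p21 of cyclin-dependent kinases, was at 19.1 FPKM (17.8 to 20.9) after knockdown and 32.4 FPKM (30.5 to 34.9) in control cells, a log2 ratio of −0.74. CDKN2C (chr1:50960745-50974633), the inhibitor p18 of CDK4 and CDK6, was at 25.4 FPKM (23.2 to 27.6) against 14.1 FPKM (13.1 to 15.3), a log2 ratio of 0.80. CDKN1B, the inhibitor p27 of cyclin E and CDK2, was at 9.78 FPKM (9.03 to 11.0) against 6.47 FPKM (5.85 to 7.55), a log2 ratio of 0.53. The inhibitors of cyclin-dependent kinases therefore went in opposite directions. CCND1, cyclin D1 of early G1, was at 83.9 FPKM (80.2 to 88.4) against 103 FPKM (98.1 to 108), a log2 ratio of −0.29. Each of these directions was the same under every alternative in which it was computed, with CDKN1A between −0.78 and −0.64 and CDKN2C between 0.50 and 0.84.

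Because a gene's level is a sum over transcripts, the transcripts behind each value were read. In 35 of 45 genes the same reference transcript led in both libraries, in 1 the leading reference transcript differed, and in 9 an assembled transcript led in at least 1 library. No assembled transcript was assigned to 32 genes. The only 2-fold difference of the list, that of GINS2, rested on an assembled transcript. In the control library 70.3% of the GINS2 level came from an assembled transcript of 939 bases and 4 exons (chr16:85677684-85683802) at 8.76 FPKM, and the reference transcript of 2673 bases stood at 3.69 FPKM. In the knockdown library only the reference transcript was above 0, at 5.34 FPKM. FPKM divides by length, so a short assembled transcript adds more FPKM per read than a long one. With each transcript weighted by its length GINS2 came to 5.34 and 6.77 FPKM (−0.29).

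CDC6 was divided in a similar way. Its control level came to 62.4% from an assembled transcript of 1851 bases, while in the knockdown library 37.1% came from an assembled transcript of 4586 bases and 19 exons that began upstream of the gene, at position 40219304 of chromosome 17. The annotated CDC6 transcript was at 11.1 FPKM after knockdown and 8.90 FPKM in control cells, and the length-weighted log2 ratio was 0.23. E2F1 had a switch in name only. Its control level came wholly from the reference transcript of 2503 bases, and its knockdown level wholly from an assembled transcript of 2515 bases with the same number of exons, 7. For MKI67 only assembled transcripts were above 0 in the control library. The reference transcript that was at 8.44 FPKM after knockdown was listed at 0 there. The sum over transcripts gave the log2 ratio of 0.18 stated above.

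CDKN1A, CDKN1B and TYMS each came from a single reference transcript in both libraries. CDKN2C came from 1 reference transcript of 2086 bases in the control library at 14.1 FPKM, which was at 20.4 FPKM in the knockdown library beside a transcript of 1220 bases at 5.04 FPKM. The longer transcript of CDKN2C taken by itself was also higher, with a log2 ratio of 0.50. Under both the plain and the length-weighted sum, intervals lay apart in the same direction for 6 lower S phase genes (MCM7, PCNA, RRM2, UHRF1, CCNE2 and CHAF1A), for TYMS on the higher side, for 8 higher G2/M genes (MKI67, TOP2A, CCNA2, CCNB1, BUB1, PLK1, CENPF and UBE2C), for KIF23 on the lower side and for the 4 G1 regulators. Among all genes 9.74% met this on the lower side and 11.3% on the higher side.

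The medians of the sets kept their signs under all alternatives tried. Length weighting gave −0.15 for the S phase set and 0.15 for the G2/M set. The 32 genes without assembled transcripts, whose medians are given above, include 13 S phase and 15 G2/M genes. Dividing the libraries by the median gene of at least 10 FPKM gave −0.23 and 0.12. GC content and length differed between the sets, with a median GC content of 50.7% and 45.3% and a median length of 3076 and 2714 bases for S phase and G2/M genes. Relative to genes of like GC content the medians were −0.22 and 0.13, and relative to genes of like length −0.23 and 0.13. Exons of 8 members overlapped an expressed gene on the opposite strand, and without those members the medians were −0.20 and 0.13.

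Other genes of the same machinery, listed by function, gave a mixed picture for replication and a like picture for mitosis. Of 42 other replication genes with a mean of at least 1 FPKM, 25 were lower and 17 higher, with a median of −0.04, and intervals lay apart for 4 lower genes and 1 higher gene, against 11.5% and 13.3% of all genes. That balance turned with reference transcripts only, to 3 lower and 8 higher, and with the dominant one to 9 and 11, while length weighting gave 7 and 1. The reference-only shares of all genes were 15.5% and 18.1%. With the dominant one the shares were 22.7% and 26.9%, and with length weighting 14.7% and 16.2%. The median of the other replication genes was nearer to that of all genes than the median of the S phase set was. CHAF1B, the partner of CHAF1A in CAF-1, was the lowest at 5.76 and 10.1 FPKM (−0.71), but 7.57 FPKM of its control level came from assembled transcripts and length weighting gave 0.14. DUT, which removes dUTP, was at 35.3 and 45.9 FPKM (−0.37), with 34.3 FPKM of its control level assembled and a length-weighted ratio of −0.018. FEN1, the nuclease of Okazaki fragments, was read from reference transcripts alone, at 38.8 and 46.1 FPKM (−0.24). RFC5, a clamp loader subunit, was the highest at 17.8 and 12.4 FPKM (0.49), and its control level came wholly from assembled transcripts, with a length-weighted ratio of 0.037.

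Of 51 other mitotic genes 13 were lower and 38 higher, with a median of 0.14, and intervals lay apart for 3 lower and 14 higher genes, against 11.5% and 13.3% of all genes. Reference transcripts only gave 7 and 18 (15.5% and 18.1% of all genes), the dominant one 8 and 23 (22.7% and 26.9%), and length weighting 3 and 16 (14.7% and 16.2%). HMMR, a spindle-associated protein, was the highest at 5.19 FPKM after knockdown and 2.94 FPKM in control cells (0.65). CDCA3, a trigger of mitotic entry, was the lowest at 28.8 and 40.2 FPKM (−0.47), which length weighting brought to −0.029. The checkpoint gene MAD2L1 was at 70.8 and 52.3 FPKM (0.43), though assembled transcripts made up 43.8 and 26.5 FPKM of these levels and reference transcripts only gave 0.07. The centrosomal kinase NEK2 was at 22.4 and 16.5 FPKM (0.41), and ASPM, a spindle pole protein read from reference transcripts alone, at 26.9 and 21.0 FPKM (0.34). CHR letters stood in 33 of 44 promoters of these genes (75%) and E2F letters in 11 of 38 promoters of the other replication genes (28.9%).

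Among 16 other cyclins, cyclin-dependent kinases and their regulators 7 were lower and 9 higher, with a median of 0.05 and with intervals apart for 1 lower and 6 higher genes, against 11.5% and 13.3% of all genes. Leaving assembled transcripts out gave 5 lower and 4 higher (15.5% and 18.1% of all genes), the dominant reference transcript 6 and 7 (22.7% and 26.9%), and length weighting 3 and 7 (14.7% and 16.2%). CDKN2D, the inhibitor p19 of CDK4 and CDK6 and a relative of CDKN2C, was the highest at 17.3 and 8.30 FPKM (0.98). CDK2, the partner of cyclin E, was the lowest at 20.7 and 26.9 FPKM (−0.36), but 13.5 FPKM of its control level was assembled, and its ratio was 0.59 with reference transcripts only and −0.26 with length weighting. SKP2, the ubiquitin ligase subunit that marks p27 for destruction, was at 20.7 and 13.1 FPKM (0.62), of which reference transcripts only left 13.7 and 13.1 FPKM. WEE1, the kinase that restrains CDK1, was at 21.7 and 14.1 FPKM (0.59, or 0.30 with reference transcripts only). CCND3 was at 48.1 and 33.6 FPKM (0.50) with no assembled transcript. The inhibitors CDKN2A and CDKN2B were under 1 FPKM in both libraries.

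The factors that act on both promoter classes were read next. Of 17 E2F, RB and DREAM genes 7 were lower and 10 higher, with a median of 0.09, and intervals lay apart for 1 on each side, against 11.5% and 13.3% of all genes. Reference transcripts only gave 2 lower and 5 higher, against 15.5% and 18.1% of all genes. The dominant one gave 4 and 5 (22.7% and 26.9% of all genes), and length weighting 1 and 2 (14.7% and 16.2%). TFDP1, the dimer partner of E2F proteins, was the lowest at 24.3 and 33.3 FPKM (−0.44). FOXM1, the transcription factor of mitotic genes, was at 33.5 and 27.6 FPKM (0.27), and TFDP2 was the highest at 5.08 and 3.88 FPKM (0.32) with overlapping intervals and a length-weighted ratio of −0.15. Of 13 subunits and partners of the anaphase-promoting complex 3 were lower and 10 higher, with a median of 0.09. Reference transcripts only gave 5 lower and 8 higher with a median of 0.06, and the dominant one 6 and 7 with a median of 0.05. The list ran from ANAPC1 at 12.2 and 17.3 FPKM (−0.47) to ANAPC16 at 33.6 and 21.5 FPKM (0.62). Of the ANAPC1 control level 10.3 FPKM was assembled, and its ratio was 0.73 with reference transcripts only and 0.02 with length weighting.

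As CDKN1A is a target of p53, 18 other p53 target genes were read beside it. Of these 11 were lower and 7 higher, with a median of −0.10. Intervals lay apart for 3 lower genes and 1 higher gene, against 11.5% and 13.3% of all genes. The higher gene was XPC, listed at 0 in control cells. For reference transcripts only, which left 17 genes, 9 were lower and 8 higher and the median was −0.0031, and length weighting gave 4 lower and 3 higher genes with intervals apart, against 14.7% and 16.2% of all genes. AEN was at 7.82 and 12.2 FPKM (−0.58), GADD45A at 21.4 and 27.9 FPKM (−0.37) and TNFRSF10B at 33.8 and 40.7 FPKM (−0.26, or 0.01 with reference transcripts only). On the other side TP53I3 was at 3.51 and 2.01 FPKM (0.58) and PLK3 at 5.22 and 3.44 FPKM (0.49, or −0.47 with reference transcripts only), with overlapping intervals that lay apart under length weighting. The extremes of the list were not usable as folds, since MDM2 was listed at 0 after knockdown (9.66 FPKM in control cells) and XPC at 0 in control cells (3.43 FPKM after knockdown). MDA-MB-231 cells are known for a mutant p53, so the list names the genes by their usual regulator only.

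The letters were also set against the differences within each set. S phase genes with E2F letters had a median log2 ratio of −0.20 (11 genes) and those without −0.22 (5 genes). G2/M genes with CHR letters had a median of 0.12 (12 genes) and those without 0.22 (6 genes). S phase genes with CCAAT had a median of −0.22 (11 genes) and those without −0.075 (5 genes), and G2/M genes 0.16 (15 genes) and 0.22 (3 genes). UHRF1 and TYMS, at −0.49 and 0.39, each held the E2F letters once. GINS2 and MCM2, at −1.08 and 0.17, held them as well.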

How the data were processed

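RNA was measured in 2 libraries of MDA-MB-231 cells, 1 per group, with groups taken from the labels. The authors deposited, for each library, Cufflinks transcripts with FPKM values and their intervals, and no read counts. The submitters' processing notes name Bowtie2 2.0.6, TopHat2 2.0.9, Cufflinks 2.1.1 and Cuffdiff 2.1.1. The genome build, read length and strand are not given in the sources used here. Of the reference transcripts matched to GENCODE 29 (GRCh38) by identifier, 98.1% had the annotated start. The authors' table of their own comparison (FPKM, fold changes, p-values and q-values) was not used.

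Gene FPKM was the sum over reference transcripts and over assembled transcripts sharing at least 1 intron on the same strand. Log2 ratios had a pseudocount of 1 FPKM and a minimum mean of 1 FPKM, and a 2-fold limit stood in place of a test. Intervals cover the estimate within a library only. Computation used Python 3.11.15, pandas 2.3.3, numpy 2.4.6 and matplotlib 3.10.9 and was tested on simulated data. Promoter sequences were from RefSeq (GRCh38.p14), matched by symbol. Of the 45 members all were named, with intervals for those past 2-fold or with intervals apart. Of the other lists the text names the lowest and the highest gene, and further genes of these lists and of the cell line markers were chosen after their values were seen. The members and lists were chosen with earlier results of these data known. There were 11 alternatives set at the outset and 5 added after seeing the data, the latter being length weighting, like GC content, like length, members without assembled transcripts and members without overlapping exons.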

Additional observations from a re-analysis of the deposited data

How the results depend on the processing

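No paired analysis was possible because each group has 1 library. The S phase median was between −0.23 and −0.13, the G2/M median between 0.08 and 0.15 and their difference between −0.36 and −0.21 over 16 alternatives. The count of members at least 2-fold lower, 1 as reported, was 0 with a pseudocount of 5 FPKM, 0 with transcripts weighted by length, 2 with assembled transcripts left out and 2 with the dominant reference transcript alone. The count at least 2-fold higher was 1 in the last 2 settings. There the lower genes were E2F1 (−4.78) and CCNE1, and the higher gene was MKI67 (3.24). For E2F1 and MKI67 the reference transcript was at 0 in 1 library, where assembled transcripts carried the level. Reference transcripts only, and the dominant one only, turned CDC6 to 0.29, GINS2 to 0.44 and CHAF1A to 0.38, and the dominant one only turned CCNA2 to −0.088. Of members whose intervals overlap, both settings turned MCM6 to 0.70 and KIF11 to −0.32, and the dominant one only turned AURKA to 0.23, AURKB to −0.046 and MCM3 to −0.0067. Length weighting, added after seeing the data, turned CDC6 to 0.23 and MCM6 to 0.06. These settings differ from the reported sum in which transcripts they count and by what length. Small ratios near 0, as of MCM3, NUSAP1 and KIF11, changed sign with the scaling, and the scalings moved the median of all genes from 0.02 to −0.01. Under reference transcripts only 11 S phase genes were lower and 8 higher. Depth in reads is unknown, and the intervals hold no spread between cultures.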
